A study of Mus musculus with 2 samples.

Results

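The serotonin receptor genes examined here are Htr1a, Htr1b, Htr1d, Htr1f, Htr2a, Htr2c, Htr3a, Htr4, Htr5a and Htr7. They were chosen by name, all 10 matched the annotation, and they are 10 of 55536 annotated genes and of 22028 protein-coding genes. Their RNA was measured in total RNA of the left cerebral cortex from 2 male B6CASTF1/J mice aged 10 days, first-generation hybrids of a C57BL/6J and a CAST/EiJ parent. The labels name no treatment, and the animals formed 1 group with 1 library each, called replicate 1 and replicate 2. The input was 300 ng of RNA per library, with ERCC spike-ins (synthetic RNAs added as a standard). The reference genome, mm10, is that of 1 parent strain, and the 2 alleles of the hybrid were not separated. The animals have their own numbers in the labels, yet their donor identifier is 1 and the same, so the spread of the libraries may be partly technical. With no second group and 1 library per animal, no p-value is given, and a difference between the libraries has no replicate check.

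Serotonin reaches the cortex through the axons of raphe neurons in the brainstem, so the cortex itself mainly supplies the receptors. The 5-HT1 and 5-HT5 receptors couple to inhibitory G proteins of the Gi/o class, which lower cyclic AMP and open potassium channels. The 5-HT2 receptors act through Gq and phospholipase C, the 5-HT4 and 5-HT7 receptors raise cyclic AMP through Gs, and the 5-HT3 receptor is a cation channel opened directly by serotonin. In the early postnatal cortex serotonin is known for its part in the wiring of sensory maps.

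The libraries held 31254528 and 30218308 expected counts (read counts shared out among transcripts), of which 4859 and 4683 belonged to the 10 genes. Levels are TPM (transcript abundance per length, brought to a common total per library) from the first of 2 quantifications that the authors deposited, and each error is an SD over both libraries. The second quantification is named where its values are used. Marker lists were read beside the cortical label: all 6 genes of glutamatergic cortical neurons were detected and summed to 1153 TPM in replicate 1 and 1142 TPM in replicate 2. Detection at 1 TPM cannot check the label. All 10 striatal and all 6 thalamic markers were detected too, as were 59.6% of protein-coding genes. The libraries differed most in the lists of choroid plexus, hippocampal and striatal cells. The 10 choroid plexus markers summed to 71.4 TPM in replicate 1 and 396 TPM in replicate 2, and 9 of the 10 were more than 1.5-fold higher in replicate 2, led by Ttr, the choroid plexus thyroid hormone carrier, at 7.35 and 303.54 TPM. The other marker, Enpp2, held 61.25 and 77.99 TPM, so it made up most of the sum in replicate 1. All 10 markers of striatal neurons were lower in replicate 2, with a sum of 247 and 170 TPM, and 5 of them were lower by more than 1.5-fold. The 6 hippocampal markers were all higher there, at 14.3 and 18.1 TPM in sum, and the 6 oligodendrocyte markers all lower, at 355 and 304 TPM with none past 1.5-fold. Over the 18515 genes with a mean of 10 counts or more, 6.50% passed 1.5-fold in either direction. In bulk tissue, fewer cells of a type and less RNA per cell cannot be told apart.

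All 10 receptor genes reached the detection limit of 1 TPM in both libraries, as did 59.6% of all protein-coding genes. Htr2c stood at the top at 17.2 ± 2.75 TPM (SD, n = 2), above 71.2% of protein-coding genes, and Htr1f at the bottom at 1.72 ± 0.191 TPM, above 43.1%. The order between them was Htr2a, Htr7, Htr1a, Htr5a, Htr1b, Htr1d, Htr4 and Htr3a. Htr2c did not overlap Htr2a, Htr7 did not overlap Htr1a, Htr1a did not overlap Htr5a, Htr1b did not overlap Htr1d, Htr4 did not overlap Htr3a, and Htr3a did not overlap Htr1f. Htr2a and Htr7, Htr5a and Htr1b, and Htr1d and Htr4 had overlapping library values, so these neighbours could not be put in order. Some gaps without overlap were narrow: the lower Htr1a library stood at 6.18 TPM and the higher Htr5a library at 6.17 TPM. The lower Htr4 library stood at 2.12 TPM and the higher Htr3a library at 2.01 TPM. With 2 libraries per gene, values without overlap describe these libraries and do not establish an order. The second quantification put Htr2c, Htr2a and Htr7 in the same places at the top and Htr1f last. It moved Htr1b from rank 6 to rank 4, above Htr1a and Htr5a. Htr1d moved from rank 7 to rank 9, below Htr4 and Htr3a. Between the quantifications the rank correlation across the 10 genes was 0.927 (Spearman, a description over genes, which are not independent replicates), and between the libraries it was 0.952.

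**Figure D1:**
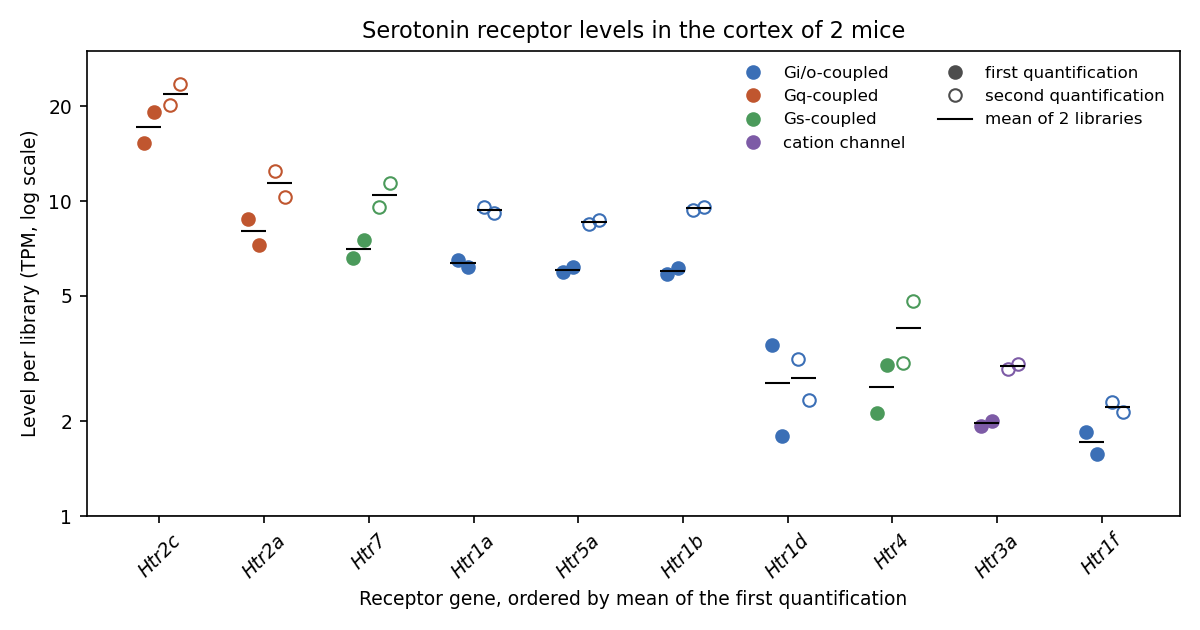
Level of each receptor gene in TPM on a log axis, 1 point per library (replicate 1 left, replicate 2 right), filled for the first and open for the second quantification, with a line at the mean of the 2 libraries and colours for the signalling class. Htr2c stands above the other genes in both libraries, Htr1d, Htr4, Htr3a and Htr1f form the low end, and the open points lie above the filled ones for all genes but Htr1d in replicate 1.

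By signalling class, the Gq-coupled pair Htr2a and Htr2c held 41.1% of the summed receptor TPM in replicate 1 and 43.4% in replicate 2. The 5 Gi/o-coupled genes held 40.6% and 35.95%, the Gs-coupled pair Htr4 and Htr7 held 14.9% and 17.3%, and the channel subunit Htr3a held 3.31% in both. The Gq and Gi/o shares did not overlap between the libraries, but their order rested on a gap of less than 1 percentage point in replicate 1. In the second quantification the Gi/o share of replicate 1 was 40.5% and the Gq share 40.3%, so the order of these classes was not settled. Gs-coupled and channel genes came below both classes in every library and quantification. These shares count every model of a gene, also those that do not code for the full receptor. Models of the full-length receptor held 10.80 of 15.24 and 12.32 of 19.13 TPM for Htr2c, and 2.65 of 6.59 and 2.55 of 7.50 TPM for Htr7. Of the Gi/o genes only Htr1d had less this way, 1.93 of 3.50 and 1.37 of 1.80 TPM. The order of Gq and Gi/o therefore also depends on which models are counted.

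Htr2c (ENSMUSG00000041380.13, chromosome X, 146962513 to 147197277, plus strand) encodes the 5-HT2C receptor, a Gq-coupled receptor whose messenger RNA is known for alternative splicing and for editing of adenosines to inosines. Its transcript models differ in a segment of 95 bases in exon 5 of Htr2c-201, at chromosome X, 147169676 to 147169770. The segment is shown first because the choice between keeping and skipping it separates the full receptor from a short product. The capitals mark the segment and the lower case its coding flanks. The next line joins the flanks as Htr2c-207 does, and the last line marks in capitals the 5 adenosines known to be edited, in a stretch that starts at base 11 of the segment.
Htr2c-201 with the segment: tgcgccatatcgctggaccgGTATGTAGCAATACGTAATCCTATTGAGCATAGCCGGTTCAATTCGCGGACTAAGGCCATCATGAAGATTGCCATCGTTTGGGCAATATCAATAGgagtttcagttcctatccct
Htr2c-207 without the segment: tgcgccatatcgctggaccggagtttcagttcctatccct
Htr2c edited stretch: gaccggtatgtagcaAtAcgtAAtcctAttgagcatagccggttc

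The segment length is not a multiple of 3, and the coding sequence drops from 459 amino acids in Htr2c-201 to 172 in Htr2c-207. The models with the segment, Htr2c-201 and Htr2c-202, held 10.80 TPM in replicate 1 and 12.32 TPM in replicate 2, which was 70.8% and 64.4% of the gene. Htr2c-207, which skips it, held 3.63 and 3.79 TPM. Among the coding models the skipping form was 25.2% and 23.5% of the TPM (24.3 ± 1.15, SD, n = 2), and it differed less between the libraries than between the quantifications. By the second quantification the skipping form was 16.8% and 18.96%. Both estimates therefore placed the segment in most, and not all, of the coding Htr2c RNA. How far the 5 adenosines were edited cannot be read from abundance tables and was not analysed here. The editing enzymes, named for this role after their values were seen, were detected, with Adar at 44.67 and 51.91 TPM and Adarb1 at 46.40 and 48.21 TPM.

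The whole gene stood at 15.24 TPM (1398 counts) in replicate 1 and 19.13 TPM (1548 counts) in replicate 2. Replicate 2 was higher on each scale tried: the log2 ratio of TPM was 0.33, and the ratio of CPM (counts scaled to the same library total) was 1.15, with a 95% interval of 1.06 to 1.23 that covers counting error only. Models that code for no protein, Htr2c-204, Htr2c-205 and Htr2c-206, held 5.34% of the gene's TPM in replicate 1 and 15.8% in replicate 2, on 27.7 and 78.8 counts. Over the coding models alone Htr2c stood at 14.43 and 16.11 TPM, a log2 ratio of 0.16. Replicate 2 was also the library with the higher choroid plexus markers (71.4 and 396 TPM in sum, with 2 of the 10 detected in both libraries and none at 0), a tissue rich in this receptor. Most of the sum was Enpp2 in replicate 1 (61.25 TPM) and Ttr in replicate 2 (303.54 TPM). The part of the choroid plexus markers in the Htr2c difference was not tested. The introns of Htr2c also hold the snoRNA gene Snora35, with 0 and 3 counts, and 7 microRNA genes that had no count in either library, both from the first quantification. The effective length (the length by which counts are divided) of the microRNA records was 0 to 39 bases in replicate 1. Records this short can take few or no reads, so whether these microRNAs were expressed cannot be read from their counts.

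Htr2a (ENSMUSG00000034997.5, chromosome 14, 74640840 to 74709494, plus strand) encodes the 5-HT2A receptor of pyramidal neurons, the main target of classical psychedelics. It has 1 transcript model, with 3 coding exons and 471 amino acids, so its level rests on no division between models. Replicate 1 stood at 8.76 TPM (990 counts) and replicate 2 at 7.26 TPM (788 counts). Replicate 2 was lower, with a CPM ratio of 0.823 (95% counting interval 0.749 to 0.905). The 2 Gq-coupled genes thus lay on opposite sides of equality between the libraries, and both counting intervals left out a ratio of 1, as did those of 19.5% of the 18515 genes with a mean of 10 counts or more. The deep-layer neuron markers summed to 205 TPM in replicate 1 and 212 TPM in replicate 2, and the glutamatergic markers to 1153 and 1142 TPM. Of the 8 deep-layer markers 4 were higher and 4 lower in replicate 2, and 1 passed 1.5-fold, Foxp2 at 8.68 and 5.64 TPM. The part of either marker list in the Htr2a difference was not tested.

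Htr7 (ENSMUSG00000024798.15, chromosome 19, 35958734 to 36057507, minus strand) encodes the 5-HT7 receptor, a Gs-coupled receptor with splice forms that differ in the tail of the protein. Its sequences are shown because the division of its RNA between models sets how much of it codes for a receptor. The first 3 lines start in the shared second coding exon, and the capitals mark the bases after the shared end, up to the stop codon in Htr7-202 and Htr7-205 and the first bases of an added exon in Htr7-201. These models code for 448, 435 and 470 amino acids. The last line marks in capitals the start of a 58-base exon (chromosome 19, 36041555 to 36041612) that Htr7-204 adds, up to and with a stop codon in frame.
Htr7-202: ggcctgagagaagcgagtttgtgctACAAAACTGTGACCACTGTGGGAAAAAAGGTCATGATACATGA
Htr7-205: ggcctgagagaagcgagtttgtgctGTAA
Htr7-201: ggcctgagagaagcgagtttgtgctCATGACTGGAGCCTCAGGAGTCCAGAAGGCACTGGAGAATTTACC
Htr7-204 added exon: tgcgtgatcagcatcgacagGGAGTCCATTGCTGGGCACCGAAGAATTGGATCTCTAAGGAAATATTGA

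Most Htr7 RNA was assigned to models that the annotation marks as targets of nonsense-mediated decay, the removal of messenger RNAs with an early stop codon. They held 3.94 of 6.59 TPM in replicate 1 and 4.95 of 7.50 TPM in replicate 2, or 59.8% and 66.0%. The second quantification gave 65.6% and 67.7%. Among 3687 detected protein-coding genes with such a model, these models passed 50% in both libraries in 3.50% of genes by the first quantification and in 2.28% by both. The measure was chosen after the Htr7 values were seen. Htr7-204 led with 37.3% and 50.1% of the gene's TPM, followed among these models by Htr7-206 with 22.5% and 15.9%.

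The 3 full-length receptor models of Htr7 held 2.65 TPM in replicate 1 and 2.55 TPM in replicate 2. They were close in sum, but their division was not: Htr7-202 took 26.3% and 4.68% of the gene, Htr7-205 took 13.9% and 24.4%, and Htr7-201 took 0% and 4.93%. By the second quantification Htr7-205 held 27.9% and 27.5%, above Htr7-202 at 6.59% and 1.05%. Htr7-205 and Htr7-202 differ by 5 bases at the end of the second exon and at their outer ends, and each share is an estimate from few reads. As a whole the gene had 372 and 408 counts, with a CPM ratio of 1.13 (95% counting interval 0.983 to 1.31), which includes 1.

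Counting only models of the full-length receptor changed the order of the genes. Htr2c stayed at the top at 11.6 ± 1.08 TPM (SD, n = 2), without overlap with Htr2a at 8.01 ± 1.06. Htr7 moved from the third to the sixth, at 2.60 ± 0.071 TPM, below Htr1a, Htr5a and Htr1b without overlap and within the range of Htr4. Htr1d moved to the last place at 1.65 ± 0.396 TPM, overlapping Htr1f. The other genes kept their levels, since all their models code for the whole receptor. By the same count in the second quantification Htr7 moved from 10.5 to 3.49 TPM and from the third to the seventh place, below Htr4 at 3.95 TPM but within its range. Htr1d was not last there, at 2.74 TPM against 2.22 TPM for Htr1f.

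**Figure D2:**
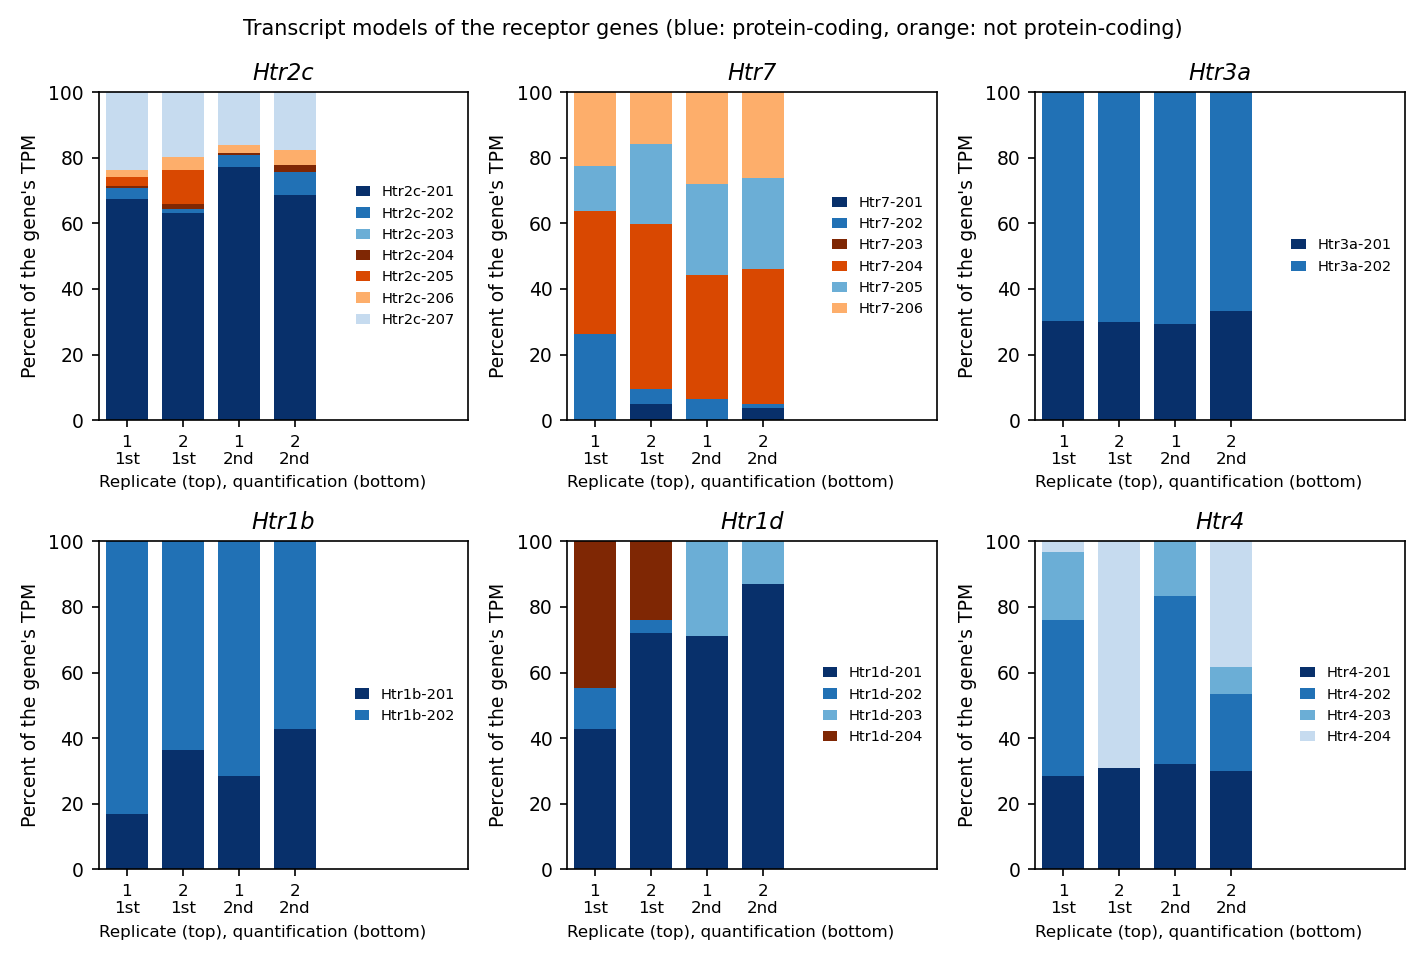
Percent of each gene's TPM held by each transcript model, for the 6 receptor genes with more than 1 model, with a bar for each replicate and each quantification (blue for models annotated as protein-coding, orange for others). Htr3a keeps nearly the same division in all 4 bars, Htr7 is more than 50% orange in all 4, and the leading model of Htr4 differs between the replicates in both quantifications.

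Htr4 (ENSMUSG00000026322.9, chromosome 18, 62324204 to 62496577, plus strand) encodes the other Gs-coupled receptor of the set, 5-HT4. It stood at 2.12 TPM (94 counts) in replicate 1 and 3.01 TPM (129 counts) in replicate 2. Replicate 2 was higher on all scales, with a CPM ratio of 1.42 (95% counting interval 1.08 to 1.87). Its 4 models code for proteins of 363 to 388 amino acids that differ in the tail, and they were divided differently in each library. Htr4-202 led in replicate 1 with 47.5% of TPM and had 0% in replicate 2, where Htr4-204 led with 69.1% after 3.40% in replicate 1. Htr4-201 kept a similar share, 28.6% and 30.9%. By counts Htr4-201 held the most in both libraries, 56.73 in replicate 1 and 83.70 in replicate 2. It is the longest model at 4661 bases, against 1267 for Htr4-202 and 1203 for Htr4-204, so the lead of those models is one of TPM only. The second quantification also gave Htr4-202 the lead in replicate 1 (51.1%) and Htr4-204 the lead in replicate 2 (38.3%), after 0% in replicate 1. These shares rest on at most 45.3 counts for either leading model. Of the 6 hippocampal markers all were higher in replicate 2 (14.3 and 18.1 TPM in sum, 4 detected, none at 0), and 3 were past 1.5-fold. All 10 striatal markers were lower there (247 and 170 TPM). The part of either in the Htr4 difference was not tested.

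The Gi/o-coupled receptors fell into a group of 3 genes near 6 TPM and a pair of low genes. Htr1a (ENSMUSG00000021721.5, chromosome 13, 105443639 to 105448122, plus strand) encodes the 5-HT1A receptor, the autoreceptor of raphe neurons and, in cortex, an inhibitory receptor of pyramidal cells. It is a single-exon gene with 1 model of 421 amino acids. It stood at 6.51 TPM (586 counts) and 6.18 TPM (534 counts), with a CPM ratio of 0.943 (95% counting interval 0.837 to 1.06). Htr5a (ENSMUSG00000039106.6, chromosome 5, 27842149 to 27855088, plus strand) encodes the 5-HT5A receptor and also has 1 model, of 357 amino acids. It stood at 5.96 TPM (646 counts) and 6.17 TPM (641 counts), with a CPM ratio of 1.03 (0.919 to 1.15). Both intervals included 1.

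Htr1b (ENSMUSG00000049511.5, chromosome 9, 81628291 to 81633828, minus strand) encodes the 5-HT1B receptor, which sits on axon terminals and holds back transmitter release, and which thalamic axons carry in the early postnatal cortex. It stood at 5.89 TPM (489 counts) in replicate 1 and 6.11 TPM (405 counts) in replicate 2. The scales disagreed in direction: the log2 ratio of TPM was 0.05, while the CPM ratio was 0.857 (95% counting interval 0.749 to 0.979). Its 2 models, the 4724-base Htr1b-202 and the 1273-base Htr1b-201, have the same 386-amino-acid coding sequence. Htr1b-201 took 16.8% of TPM in replicate 1 and 36.5% in replicate 2, and the effective length by which counts are divided was 4045 and 3367 bases. The direction of Htr1b thus depended on the scale.

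On the opposite strand, the antisense gene D430036J16Rik (ENSMUSG00000097466.8, chromosome 9, 81631551 to 81645156) shares 852 exon bases with Htr1b. It had 102 and 101 counts. No source used here gives the strand setting of the counting, so reads of this pair may not be fully separated. The 6 markers of thalamic neurons were all detected, beside 59.6% of protein-coding genes, with a sum of 87.3 TPM in replicate 1 and 94.0 TPM in replicate 2. Calb2, which also stands in the list of caudal interneurons, held 32.96 and 34.68 TPM of these sums. The part of the thalamic markers in the Htr1b level was not tested.

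Htr1d (ENSMUSG00000070687.11, chromosome 4, 136423524 to 136444398, plus strand) encodes the 5-HT1D receptor, a target of the triptans used against migraine. It stood at 3.50 TPM (114 counts) in replicate 1 and 1.80 TPM (77 counts) in replicate 2. It alone among the 10 passed 1.5-fold in TPM, with a log2 ratio of -0.92, against 6.50% of the 18515 genes with a mean of 10 counts or more (2.40% in the lower direction). A share of 1 in 10 members is near that background. The CPM ratio was 0.699 (95% counting interval 0.516 to 0.941), which left out 1 but did not pass 1.5-fold.

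Much of the Htr1d difference in TPM lay in Htr1d-204, a non-coding model of 363 bases. It held 44.6% of TPM in replicate 1 on 8.45 counts and 24.2% in replicate 2 on 2.27 counts, and was at 0 in the second quantification. Over the 3 coding models Htr1d stood at 1.93 and 1.37 TPM, a log2 ratio of -0.47, which is short of 1.5-fold. Replicate 2 was lower on every scale tried. The striatal markers (10 of 10 detected, none at 0) were also lower in replicate 2, at 247 and 170 TPM in sum, and their part in the Htr1d difference was not tested.

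Htr1f (ENSMUSG00000050783.5, chromosome 16, 64924729 to 65105854, minus strand) encodes the 5-HT1F receptor, another target of drugs against migraine. It has 1 model, of 366 amino acids, spread over 181126 bases of genome. It stood at 1.85 TPM (94 counts) in replicate 1 and 1.58 TPM (77 counts) in replicate 2. At this depth no difference was detectable, with a CPM ratio of 0.847 (95% counting interval 0.619 to 1.16). The coding sequences of Htr1a, Htr1b, Htr1d and Htr1f each lie in 1 exon, whereas that of Htr3a lies in 9.

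Htr3a (ENSMUSG00000032269.8, chromosome 9, 48899213 to 48911099, minus strand) encodes the subunit that every 5-HT3 channel needs, and in cortex it marks interneurons that arise in the caudal ganglionic eminence. The coding sequences of its 2 models differ by 18 bases at the start of exon 9 (chromosome 9, 48899991 to 48900008), which add 6 amino acids to a protein of 483. Htr3a-201 also starts 78 bases further upstream, so the shares of the models do not rest on the 18 bases alone. The lines show the junction with these bases in capitals and without them, because these forms give 2 versions of the channel subunit.
Htr3a-201: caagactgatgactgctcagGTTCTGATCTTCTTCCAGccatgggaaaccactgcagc
Htr3a-202: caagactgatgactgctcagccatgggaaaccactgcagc

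The shorter form, Htr3a-202, held 69.8% of Htr3a TPM in replicate 1 and 70.1% in replicate 2, and the longer form, Htr3a-201, held 30.2% and 29.9%. The second quantification gave Htr3a-202 70.7% and 66.8%. The gene stood at 1.93 and 2.01 TPM, with 76 counts in each library and a CPM ratio of 1.03 (95% counting interval 0.743 to 1.44). The 12 markers of caudal interneurons were all detected, beside 59.6% of protein-coding genes, and summed to 494 and 475 TPM. None passed 1.5-fold between the libraries, beside 6.50% of genes with a mean of 10 counts or more. Htr3b, which codes for the partner subunit of mixed channels, was listed at 0 counts in both libraries by the first quantification and at 2 and 3 counts by the second.

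**Figure D3:**
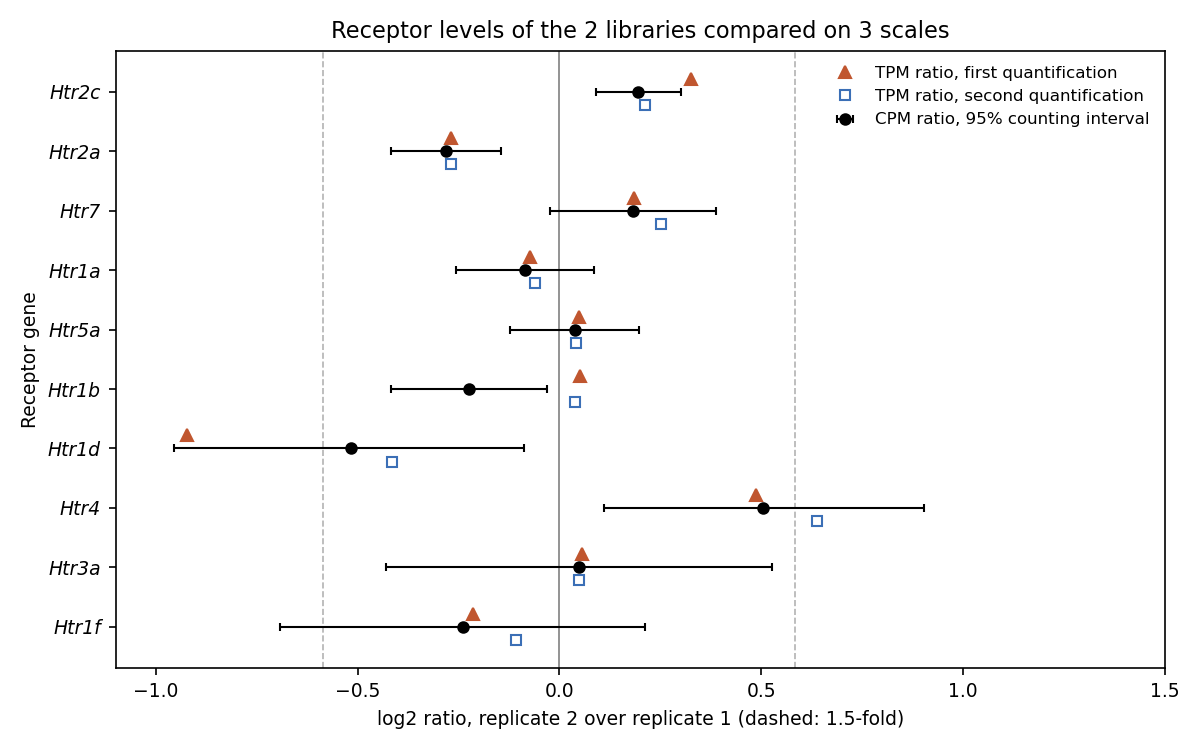
Log2 ratio of replicate 2 to replicate 1 for each receptor gene, as CPM with its 95% counting interval (black circles), as TPM of the first quantification (triangles) and as TPM of the second (squares), with dashed lines at 1.5-fold. Htr1d passes the line in TPM of the first quantification only, Htr4 in the second only, and the intervals of Htr2c, Htr2a, Htr1b, Htr1d and Htr4 leave out equality.

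Over the 10 genes the median log2 ratio of TPM was 0.05, beside 0.04 over the 18515 genes with a mean of 10 counts or more. By CPM no receptor gene passed 1.5-fold, beside 6.52% of genes, and in the second quantification 1 did, Htr4 with a log2 ratio of 0.64, beside 7.39% (4.40% in the higher direction). By counts, Htr2c and Htr4 were higher in replicate 2 and Htr2a, Htr1b and Htr1d lower, each with a counting interval that left out 1, which was so for 19.5% of genes with a mean of 10 counts or more. Whether an interval leaves out 1 also depends on the number of counts. For Htr1b the TPM ratios of both quantifications lay on the other side of 1 (log2 0.05 and 0.04). For Htr1a, Htr1f, Htr3a, Htr5a and Htr7 the interval included 1. These intervals hold no animal-to-animal spread, and without molecular identifiers several reads can come from 1 molecule.

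The receptor genes outside the set were lower than most of the 10. Htr6, a Gs-coupled receptor, stood at 1.78 TPM in replicate 1 and 2.20 TPM in replicate 2, and Htr5b, a relative of Htr5a, stood at 1.59 and 1.55 TPM. Htr2b, known from heart valves and gut, stood at 0.17 and 0.13 TPM, on 7 and 4 counts. With Htr3b at 0 in the first quantification, 2 of these 4 genes were detected in both libraries, beside 59.6% of protein-coding genes.

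Of the 13 genes for making, storing, taking up and breaking down serotonin, 8 were detected, a share near the 59.6% of all protein-coding genes. None with a mean of 10 counts or more passed 1.5-fold between the libraries, beside 6.50% of all such genes. The genes that define serotonergic neurons were low: Tph2, the neuronal enzyme that starts serotonin synthesis, stood at 0.62 and 0.76 TPM, and Slc6a4, the serotonin transporter, at 0.31 and 0.25 TPM. Slc18a2, the vesicular monoamine transporter, stood at 0.90 and 1.14 TPM. Tph1, the enzyme of peripheral tissues and pineal gland, stood at 0.21 and 0.40 TPM on 4 and 15 counts. None of the 6 markers of serotonergic neurons was detected in both libraries, their sum was 2.03 and 2.30 TPM, and Fev, the transcription factor that defines these cells, had no count.

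Enzymes and carriers with wider roles were higher. Maoa, the oxidase that breaks down serotonin, stood at 16.19 and 15.20 TPM, and its relative Maob at 3.96 and 3.16 TPM. Slc29a4, a low-affinity monoamine transporter, stood at 30.25 TPM in replicate 1 and 43.44 TPM in replicate 2, and Slc22a3, another such transporter, at 5.17 and 4.74 TPM. Ddc, the decarboxylase of the last step of synthesis, stood at 2.44 and 2.89 TPM. In the pathway of tetrahydrobiopterin, the cofactor of Tph2, the first enzyme gene Gch1 was at 0.52 and 0.58 TPM, whereas Pts was at 22.36 and 18.01 TPM, Spr at 19.38 and 19.42 TPM, and the recycling enzyme Qdpr at 40.10 and 38.26 TPM.

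Downstream of the receptors, all 22 G protein, effector and channel genes and all 15 genes of receptor regulators and partners were detected, beside 59.6% of protein-coding genes. None passed 1.5-fold between the libraries, beside 6.50% of genes with a mean of 10 counts or more. The 3 highest of the G protein list were Gnas, the stimulatory alpha subunit used by 5-HT4 and 5-HT7, at 927 ± 23.7 TPM (SD, n = 2), the beta subunit Gnb1 at 576 ± 2.71 TPM, and Gnao1, the Go alpha subunit used by the 5-HT1 receptors, at 505 ± 10.9 TPM. Among regulators the highest were Dlg4, a synaptic scaffold that binds the tails of 5-HT2 receptors, at 413 ± 7.07 TPM, Rgs4, which ends Gi/o and Gq signals, at 115 ± 2.21 TPM, and the arrestin Arrb1 at 83.0 ± 7.39 TPM. Each of the 10 receptor genes stood below the highest genes of either list by more than the spread of the libraries.

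**Figure D4:**
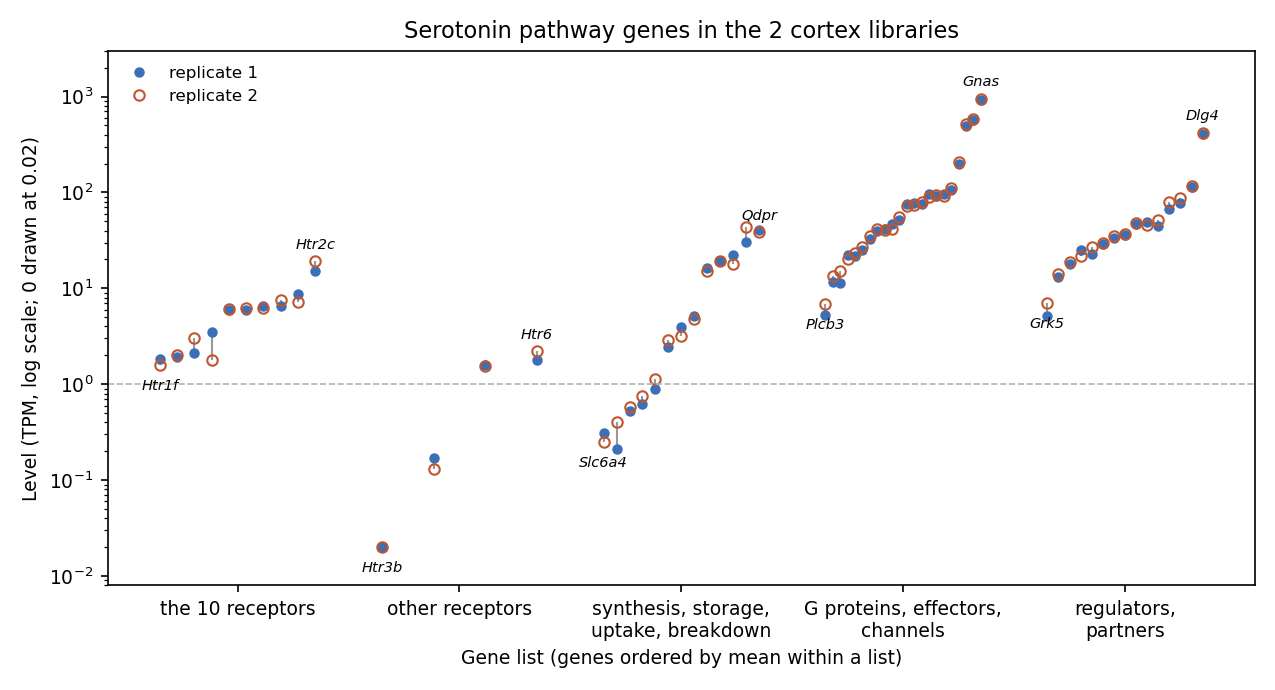
Level of each gene in TPM on a log axis, by list and ordered by mean within a list, with a filled point for replicate 1 and an open point for replicate 2 (0 is drawn at 0.02, and the dashed line is the detection limit of 1 TPM). The 10 receptors lie between 1.58 and 19.13 TPM, and the G protein and regulator lists lie above most of them, with Gnas and Dlg4 as their highest genes.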

How the data were processed

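Gene and transcript tables were built on mm10 with GENCODE M21, per the deposited file descriptions. The first quantification holds expected counts, TPM and the percent of a gene's TPM per transcript, per the file headers. In the second quantification the authors deposited estimated counts and TPM for each transcript, summed here over the transcripts of a gene. No source used here gives the programs, their versions or the strand setting. In the first, effective length was transcript length minus 99 bases, which raises the TPM of short models. Records without a gene name (26345, of which 96 were ERCC spike-ins) held 0.360% and 0.354% of the counts. They count in the depth but not in CPM, which was scaled to the 31142173 and 30111214 counts of annotated genes.

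Ratios are log2 of replicate 2 over replicate 1 with 0.1 TPM added, for genes with a mean of 10 expected counts or more. CPM ratios carry 95% Clopper-Pearson intervals on rounded expected counts (scipy 1.17.1). TMM factors (edgeR 4.0.16) and DESeq2 1.42.0 size factors were scaling alternatives, and no model was tested. The ratio step was tested on simulated counts that held sampling noise only, so that test does not cover the wider spread of these libraries. Counts of the 2 libraries differed beyond sampling noise (chi-square 5.06 per degree of freedom over 18515 genes), so they are not 1 library deposited again. Detection was 1 TPM in both libraries. All 10 receptors were named, and from each other pathway list the 3 highest, any past 1.5-fold, and all receptor and synthesis genes. The receptors and the lists were chosen with earlier results of these data known. Some genes stand in more than 1 list, such as Drd1, Prox1, Calb2 and Tph2. Sequences were read from the GENCODE M21 transcripts.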

Additional observations from a re-analysis of the deposited data

How the results depend on the processing

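No paired analysis was possible because there is only 1 group of 2 libraries. The number of receptor genes past 1.5-fold was 1 in TPM and 0 with CPM, TMM factors or DESeq2 size factors. It was 1 with the second quantification, where the gene was Htr4 and not Htr1d. In the second quantification the Gq share was 40.05% (42.3% in the first) and the channel share 3.60% (3.31%, and 3.33% from posterior mean TPM). A gene's main model is that with the highest mean share in the first quantification. The main model of Htr1d held 79.1% (57.4%), that of Htr2c 72.8% (65.2%) and that of Htr3a 68.7% (70.0%). That of Htr1b held 64.3% (73.4%), that of Htr7 39.4% (43.7%) and that of Htr4 19.1% (36.25%). For Htr4 the second quantification was led by Htr4-202 at 37.4%. In replicate 1 of the first quantification Htr1d-204 and Htr4-202 led instead of the main models. With each library alone, all 10 genes were detected, the Gi/o share was 35.95% to 40.6%, the Gq share 41.1% to 43.4%, the Gs share 14.9% to 17.3% and the channel share 3.31%. The main-model shares with each library alone were 63.5% to 83.2% for Htr1b-202, 42.7% to 72.0% for Htr1d-201, 63.2% to 67.3% for Htr2c-201, 69.8% to 70.1% for Htr3a-202, 3.40% to 69.1% for Htr4-204 and 37.3% to 50.1% for Htr7-204. At a detection limit of 2 TPM, 7 genes were detected in both libraries. Levels were 1.04 to 1.58 times as high in the second quantification, and 2.06 to 2.07 times when TPM was taken over nuclear protein-coding genes alone. The sign of the ratio between libraries changed under other scalings for Htr1b only. The lowest genes, with 76 to 129 counts, have the widest counting intervals. Ratios over coding models alone were added after seeing the data.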

Other observations

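Of 19 dopamine, adrenergic and muscarinic receptor genes 14 were detected, beside 59.6% of protein-coding genes, with mean levels from 0.150 to 60.7 TPM over all 19. Their TPM summed to 178.59 in replicate 1 and 178.58 in replicate 2, beside 58.35 and 60.75 for the 10 serotonin receptors. The highest were muscarinic: Chrm1, the Gq-coupled M1 receptor of pyramidal neurons, stood at 60.7 ± 1.24 TPM (SD, n = 2), above Htr2c in both libraries. Chrm3 stood at 18.3 ± 1.17 TPM, within the range of Htr2c, and the Gi/o-coupled Chrm4 at 16.3 ± 1.26 TPM. Past 1.5-fold between the libraries were Drd1, the D1 dopamine receptor, at 17.41 and 10.24 TPM, and Adra2b, an alpha-2 adrenergic receptor, at 0.38 and 0.17 TPM on 30 and 13 counts. These were 2 of the 17 listed genes with a mean of 10 counts or more, beside 6.50% of all such genes. Drd1 also stands in the striatal marker list, in which all 10 genes were lower in replicate 2.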
